A study of Arabidopsis thaliana with 32 samples.

Results

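The transposable elements (TEs) described here lie on the arms of the 5 Arabidopsis thaliana chromosomes, outside the central, pericentromeric part of each. TE identifiers carry a chromosome number and a number that runs along the chromosome, so an arm TE was defined as any identifier outside a central window of id numbers. The windows ran from AT1TE40000 to AT1TE58000, AT2TE05000 to AT2TE30000, AT3TE45000 to AT3TE67000, AT4TE07500 to AT4TE29000 and AT5TE34500 to AT5TE53000. Of 31189 TEs in the count table, 15132 were arm TEs. No library held a read of 7958 of these, and 5193 had 1 to 9 counts summed over the 8 libraries. The remaining 1981 had at least 10 counts. AT2TE00095, next to the ribosomal RNA genes (rDNA) at the tip of chromosome 2, was set apart, which left 1980 arm TEs, with 522, 294, 373, 290 and 501 on chromosomes 1 to 5. At the lower bound, 85 members had exactly 10 counts and mean levels of 0.0299 to 0.0463 CPM, and 92 arm TEs just outside it had 9 counts and 0.0288 to 0.0431 CPM. CPM stands for counts per 1000000 of effective library size.

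Leaves of 3-week-old plants of the Col-0 accession, grown in long days, were compared in 4 genotypes with 2 RNA-seq libraries each. Mutant plants were labelled atxr5/atxr6/gcn5 (written atxr5/6 gcn5 here), atxr5/atxr6 (atxr5/6) or gcn5, and wild-type plants were the control; mutant alleles are not given in the labels. The labels do not say that the 2 libraries of a genotype came from separate plants, and p-values therefore measure only the spread between these libraries, which may be technical. The 24 chromatin samples of the series were not analysed here.

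Most TEs of Arabidopsis are kept silent by DNA methylation, by methylation of histone H3 at lysine 9 and by small RNAs. They are densest around the centromeres, whereas those on the arms lie scattered among genes, often as short or old copies that are targeted by RNA-directed DNA methylation. ATXR5 and ATXR6 place a single methyl group on lysine 27 of the replication-dependent histone H3.1, a mark of silent chromatin. GCN5, also called HAG1, acetylates histone H3 and acts as a transcriptional coactivator. The study's title concerns how this methyl mark bears on acetylation by GCN5, and the arm TEs are described in that setting.

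The gene table summed to 24860332 to 43969417 counts per library and the TE table to 75865 to 171823 counts. ATXR5 was at 0.228 and 0.171 CPM in atxr5/6 gcn5, 0.783 and 0.849 in atxr5/6, 1.95 and 2.07 in gcn5, and 3.27 and 3.20 CPM in wild type. ATXR6 was at 0.587 and 0.377 CPM in atxr5/6 gcn5, 0.217 and 0.196 in atxr5/6, 0.891 and 0.752 in gcn5, and 0.458 and 0.462 CPM in wild type. The ATXR6 transcript was lowest in atxr5/6, while its atxr5/6 gcn5 libraries lay on either side of wild type. GCN5 (HAG1) transcripts did not separate the genotypes, with 4.83 to 6.10 CPM in the libraries labelled atxr5/6 gcn5, 4.85 to 5.35 CPM in those labelled gcn5 and 4.24 to 5.34 CPM in wild type, so transcript level could not check the gcn5 label. The 6 leaf mesophyll markers were present throughout. Their summed level was lower in atxr5/6 gcn5 (11019 to 12445 CPM) and gcn5 (12343 to 13403 CPM) than in atxr5/6 (18141 to 18491 CPM) and wild type (19506 to 19926 CPM). The companion cell marker SUC2 followed the same split, at 32.8 to 34.5 CPM in atxr5/6 gcn5, 78.4 to 79.9 CPM in atxr5/6, 35.9 to 36.1 CPM in gcn5 and 106 to 108 CPM in wild type. The 3 root hair markers summed to at most 0.0752 CPM, with EXPA7 at 0 in every library, the 4 floral markers to 1.66 to 5.56 CPM and the 5 markers of dividing cells to 18.4 to 33.5 CPM. The pollen marker VGD1 reached 2.33 CPM in gcn5 replicate 2 and at most 0.205 CPM elsewhere. Features of the rDNA took 19.5% and 15.02% of gene counts in atxr5/6 gcn5, 0.898% and 2.40% in atxr5/6, 21.6% and 13.4% in gcn5, and 0.311% and 0.664% in wild type. The rDNA share thus splits the libraries exactly as the gcn5 label does. So does the plastid share of gene counts, at 43.2% to 46.5% with the label and 53.8% to 57.4% without it. In every comparison across that label, neither share can be told apart from the label. Fewer cells of a type and less RNA per cell cannot be told apart in such bulk samples either.

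Arm TEs were mostly weakly transcribed, and whether their combined output differed between genotypes depended on the denominator. The median member had 53 counts summed over the 8 libraries, and of the 1980 members 414 averaged at least 1 CPM in atxr5/6 gcn5, 393 in atxr5/6, 424 in gcn5 and 378 in wild type. Their summed level was 2075 and 1907 CPM in atxr5/6 gcn5, 2021 and 2028 in atxr5/6, 2058 and 2116 in gcn5, and 1944 and 2150 CPM in wild type. The 2 libraries of each mutant lay within the range of wild type, apart from the lower atxr5/6 gcn5 library. The arm TEs took 1888 and 2095 counts per 1000000 gene counts in atxr5/6 gcn5, 2120 and 2157 in atxr5/6, 1694 and 2264 in gcn5, and 2028 and 2097 in wild type. The 4 libraries with atxr5/6 in the label averaged 2065 ± 121 and the 4 without it 2021 ± 239 (SD), with a two-sided exact permutation p of 0.771. For the gcn5 label the averages were 1985 ± 248 with it and 2101 ± 54.1 without it (exact permutation p = 0.429, n = 4 each). The sign of both differences depended on the denominator. Per 1000000 gene counts without organelle and rDNA genes, the arm TEs took 5726 and 5153 counts in atxr5/6 gcn5, 4944 and 5021 in atxr5/6, 5484 and 5742 in gcn5, and 4650 and 5091 in wild type. All 4 libraries with the gcn5 label were then above all 4 without it, with a difference of 599.9 (exact permutation p = 0.0286, the smallest this test allows, not adjusted). On effective library size the same difference was 3.50.

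The arm share of all TE counts was lower in each mutant than in wild type. It was 60.97% and 60.9% in atxr5/6 gcn5, 54.1% and 53.9% in atxr5/6, 58.0% and 56.3% in gcn5, and 72.5% and 73.5% in wild type. The groups did not overlap, but 2 libraries against 2 cannot give an exact permutation p below 0.333. Over 4 libraries against 4, the share averaged 57.5% ± 4.00 with atxr5/6 in the label and 65.1% ± 9.17 without it (SD, exact permutation p = 0.286, adjusted p = 0.571 over 4 tests). With AT2TE00095, which was set apart, counted among the arm TEs the same difference had an exact permutation p of 0.0286, not adjusted. That is the smallest p this test allows. The gcn5 label gave 59.1% ± 2.27 with it and 63.5% ± 11.0 without it (exact permutation p = 0.429, adjusted p = 0.571), and this difference turned its sign when AT2TE00095 was counted in. With AT2TE00095 counted in, the share was 67.6% and 67.2% in gcn5, against 72.6% and 73.8% in wild type. The TEs of the central windows took 1067 and 1181 counts per 1000000 gene counts in atxr5/6 gcn5, 1740 and 1764 in atxr5/6, 906 and 1247 in gcn5, and 729 and 700 in wild type.

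**Figure D1:**
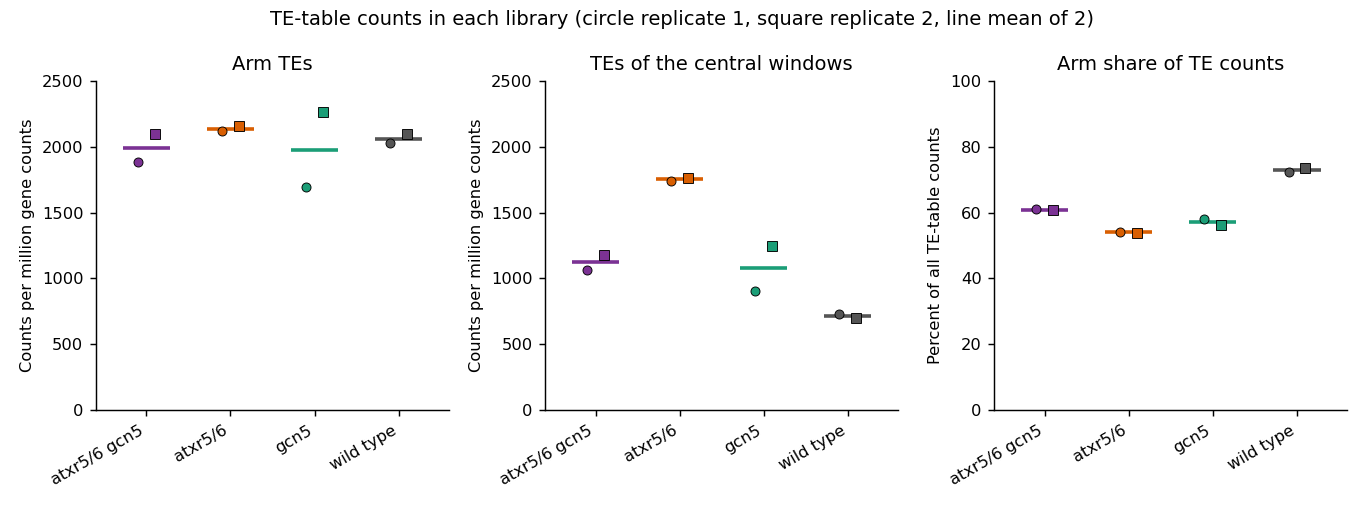
Counts of arm TEs and of central-window TEs per 1000000 gene counts, and the arm share of all TE counts in percent, for each library of the 4 genotypes (points are libraries, lines are means of 2). The arm counts are 1694 to 2264 per 1000000 gene counts, with both extremes in gcn5, while the central counts are highest in atxr5/6 and the arm share is highest in wild type.

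A few elements carried much of the arm signal. The 5 arm TEs with the highest mean CPM held 10.4% to 14.7% of arm counts in a library. The highest was AT2TE37325, with 60.0 and 73.4 CPM in atxr5/6 gcn5, 107 and 105 in atxr5/6, 56.7 and 58.7 in gcn5, and 68.4 and 88.5 CPM in wild type. It was lower in atxr5/6 gcn5 than in atxr5/6 with a log2 fold change of -0.66 (edgeR adjusted p = 0.00516, SE 0.16), and its 2 libraries there lay below both atxr5/6 libraries. AT4TE59630 averaged 49.9 CPM over all libraries and also fell in atxr5/6 gcn5, by 0.74 on the log2 scale against atxr5/6 and by 0.66 against wild type. AT1TE88825 averaged 58.3 CPM and was lower in gcn5 than in wild type (log2 fold change -0.77, edgeR adjusted p = 0.0289). AT1TE71775 averaged 39.3 CPM, with 26.5 and 26.1 CPM in atxr5/6 and 40.2 and 63.1 CPM in wild type, and was lower in atxr5/6 (log2 fold change -0.97, SE 0.18, edgeR adjusted p = 9.34e-04). AT4TE74230, at 26.3 to 33.7 CPM in every library, was called in no comparison.

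Of the 1980 members, 936 (47.3%) passed the filter on low counts and could be tested, together with 603 TEs of the central windows and AT2TE00095, which makes 1540 TEs. The other 1044 members were too weakly counted for a test. They are described only in the totals above. Tests were edgeR's quasi-likelihood test in a single fit of all 8 libraries, with Benjamini-Hochberg adjustment over all 1540 TEs, and a TE was called at an adjusted p under 0.05. A group with at most 3 counts in each of its libraries was treated as at the floor, which was 0.0652 to 0.122 CPM depending on the library. A fold against such a group is a lower bound, computed against 3 counts in the shallower library. Such limits cover counting error only. TEs are named by identifier, since family names, coordinates and sequences of the elements were not used here. Reads of near-identical copies may be divided between them, and reads over a TE that lies inside a gene or its untranslated regions may belong to that gene. Neither could be examined without TE coordinates.

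Of the 5 pairwise comparisons, 131 tested arm TEs were called in 1, 132 in 2, 107 in 3, 21 in 4 and 3 in all 5, and 542 were called in none. The genotype with the highest mean was gcn5 for 302 members, atxr5/6 gcn5 for 218, atxr5/6 for 217 and wild type for 199. The lowest mean was in wild type for 315, atxr5/6 for 266, atxr5/6 gcn5 for 210 and gcn5 for 145. These counts are for arm TEs alone and were not set beside those of all TEs tested, so they mark nothing particular to the arms. Replicates differed by a median of 0.32, 0.22, 0.31 and 0.31 on a log2(CPM + 0.1) scale in atxr5/6 gcn5, atxr5/6, gcn5 and wild type.

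**Figure D2:**
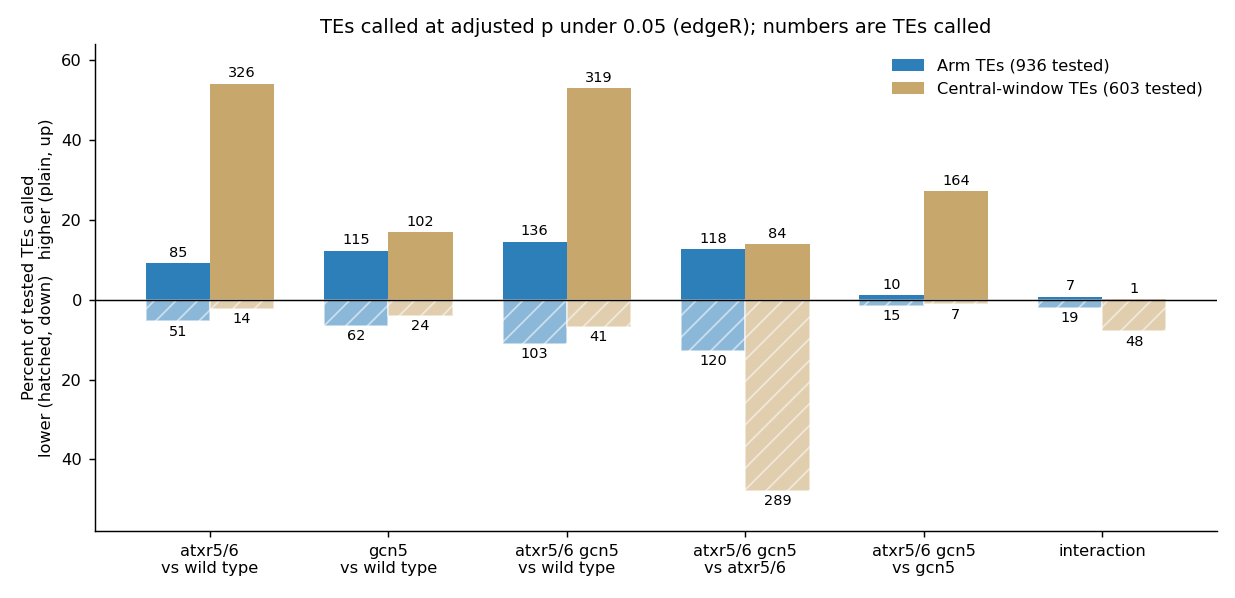
Percent of tested TEs called higher (plain bars, up) or lower (hatched bars, down) in each comparison, for arm TEs (left bar of each pair, 936 tested) and central-window TEs (right bar, 603 tested); the numbers on the bars are TEs called. In atxr5/6 against wild type 85 arm TEs were higher and 51 lower, while 326 central TEs were higher and 14 lower.

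The first question was how arm TEs differ between atxr5/6 and wild type. The methyl mark on lysine 27 was not examined here. Against wild type, atxr5/6 had 85 arm TEs higher (9.08% of those tested) and 51 lower (5.45%), with a median log2 fold change over all tested arm TEs of 0.06. Over all 1540 TEs tested, 26.8% were called higher and 4.22% lower, and the median was 0.24. In the central windows 326 of 603 (54.1%) were higher and 14 (2.32%) lower. The arm TEs that rose were weak in wild type, where 23 of the 85 were at the floor, and had a median mean level of 1.19 CPM in atxr5/6 and 0.255 CPM in wild type. The 51 that fell were better counted, with 1.30 CPM in atxr5/6 and 3.08 CPM in wild type. A TE at the floor in wild type passed the filter through mutant reads and could only be called higher. Part of this contrast was therefore fixed in advance.

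Several of the increases with the smallest p were in elements with few or no reads in wild type and gcn5. AT3TE67635, on chromosome 3 at 635 id numbers from the central window, was at 0.1304 and 0.171 CPM in atxr5/6 gcn5, 6.91 and 7.15 in atxr5/6, 0 and 0 in gcn5, and 0 and 0.0385 CPM in wild type. Both atxr5/6 libraries thus stood far above the other 6. The increase over wild type was at least 60.8-fold (edgeR adjusted p = 3.97e-08). AT4TE05190 had 2.04 and 2.48 CPM in atxr5/6, 0.293 and 0.342 CPM in atxr5/6 gcn5, and no read in gcn5 or wild type, and was at least 19.6-fold higher in atxr5/6 than in wild type. AT2TE35840 and AT2TE03625, on either side of the central window of chromosome 2, followed the same pattern, with 1.86 to 2.24 CPM in atxr5/6 and at most 0.103 CPM in any other library. They were at least 16.6-fold and 18.3-fold higher in atxr5/6 than in wild type. AT4TE07420 and AT2TE02465 were lower in level, at 0.739 to 0.979 CPM in atxr5/6, and were at least 7.43-fold and 8.09-fold higher.

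AT4TE03295 differed from these in being transcribed in wild type. It had 0.0978 and 0.137 CPM in atxr5/6 gcn5, 3.15 and 3.27 in atxr5/6, 0.122 and 0.113 in gcn5, and 0.632 and 0.539 CPM in wild type. The atxr5/6 libraries were the highest and the wild-type libraries next, and both stood apart from the low and overlapping libraries with the gcn5 label. In atxr5/6 it was higher than in wild type by 2.43 on the log2 scale (edgeR adjusted p = 7.00e-06, SE 0.25). AT1TE93275, at 35275 id numbers from the window of chromosome 1, was high in every mutant. It had 3.81 and 3.05 CPM in atxr5/6 gcn5, 2.39 and 2.32 in atxr5/6, 3.44 and 2.67 in gcn5, and 0.131 and 0.0771 CPM in wild type. The atxr5/6 level exceeded that of wild type by 4.36 on the log2 scale (edgeR adjusted p = 7.35e-07, SE 0.34).

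The named arm TEs that fell in atxr5/6 were, apart from AT3TE37080, counted in every genotype. AT3TE76010 had 22.3 and 12.8 CPM in atxr5/6 gcn5, 4.24 and 4.05 in atxr5/6, 15.1 and 17.4 in gcn5, and 11.1 and 16.6 CPM in wild type. The atxr5/6 libraries were the lowest of the 8, and the other genotypes overlapped with each other. It was lower in atxr5/6 than in wild type, with a log2 fold change of -1.73 (edgeR adjusted p = 1.51e-04, SE 0.26). AT4TE36750 also was lowest in atxr5/6, with 1.11 and 1.11 CPM against 2.81 and 3.93 CPM in wild type, and fell by 1.58 on the log2 scale. AT2TE43295 was highest in wild type, at 3.596 and 4.66 CPM, and lower in all mutants, with 0.880 and 0.616 CPM in atxr5/6 gcn5, 1.57 and 1.53 CPM in atxr5/6, and 1.34 and 0.977 CPM in gcn5. AT4TE51190 and AT5TE80010 behaved likewise, with 1.64 to 4.09 CPM and 0.548 to 1.05 CPM over the mutant libraries against 7.98 and 15.3 CPM, and 2.51 and 4.55 CPM, in wild type. AT3TE37080 had at most 3 counts in each library of all mutants and was at least 10.3-fold lower in atxr5/6 than in wild type, where it had 0.632 and 1.39 CPM. Of the 51 members that fell, 36 were higher in wild-type replicate 2 than in replicate 1, by a median of 0.31 on the log2(CPM + 0.1) scale. Over all 936 tested arm TEs, 524 were higher in wild-type replicate 2.

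The count of 136 calls fell to 78 with DESeq2 and to 69 among TEs with a mean of at least 20 counts. With the rDNA share as covariate it fell to 58, but that share was higher in both atxr5/6 libraries than in both wild-type libraries. The covariate thus partly followed the genotype here too. The count rose to 205 with only the compared genotypes fitted. Without atxr5/6 replicate 1 it was 86, without atxr5/6 replicate 2 it was 80, and without wild-type replicate 1 more arm TEs were lower (59) than higher (50).

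**Figure D3:**
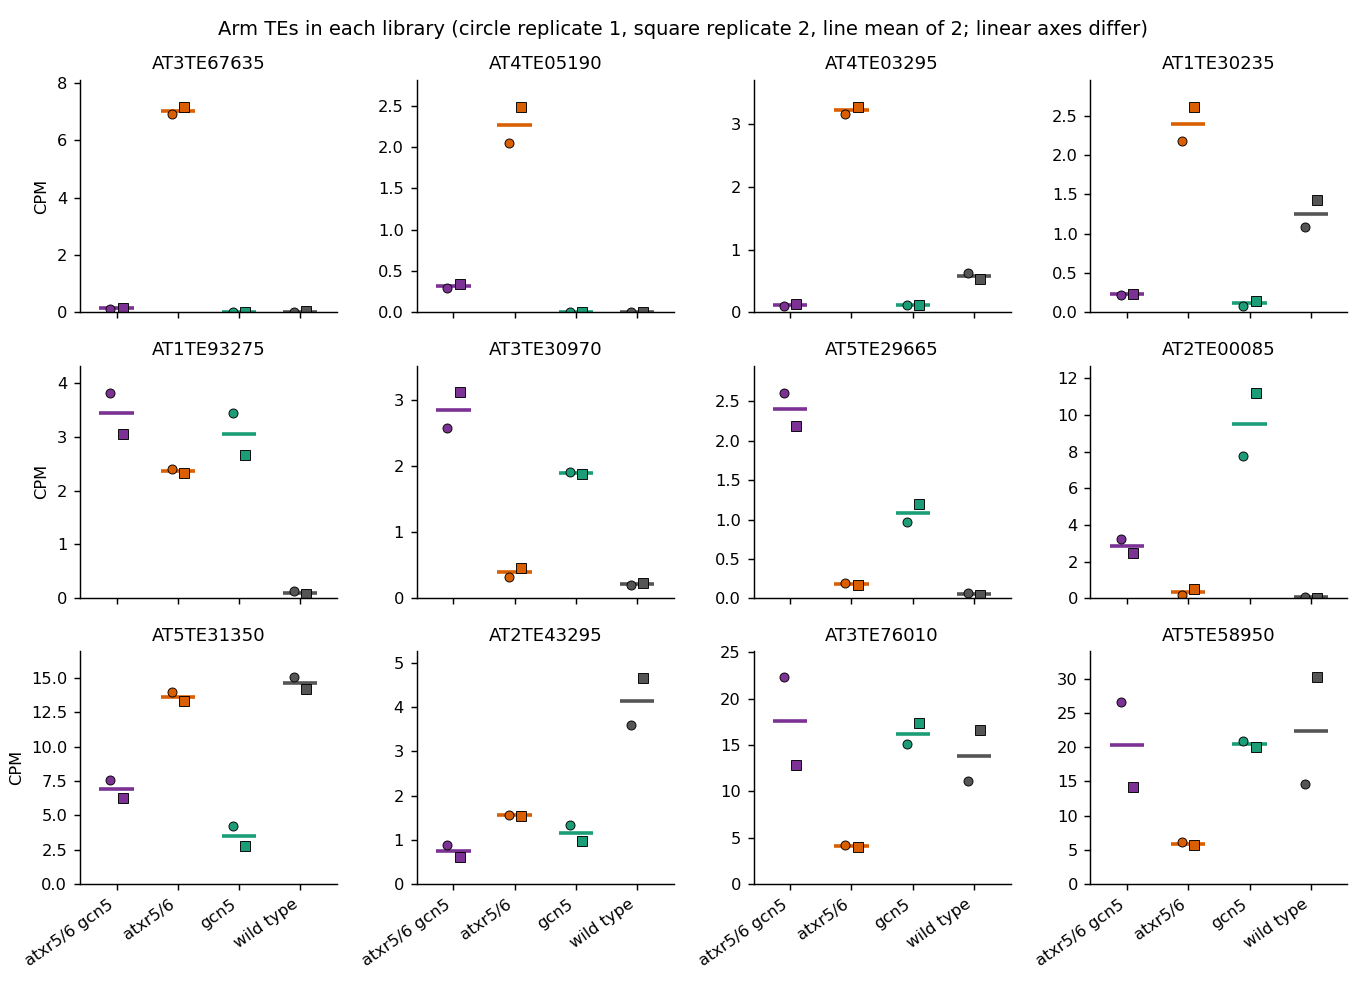
Level in CPM (linear axes that differ between panels) of 12 arm TEs in each library of the 4 genotypes, with circles for replicate 1, squares for replicate 2 and lines at the mean of 2. The top row holds TEs with their highest level in atxr5/6, such as AT3TE67635 at 6.91 and 7.15 CPM; the middle row holds TEs lowest in wild type; and AT3TE76010 and AT5TE58950 in the bottom row are lowest in atxr5/6.

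Libraries labelled gcn5 were set against wild type to ask which arm TEs differ when the acetyltransferase is mutated alone. In gcn5, 115 arm TEs were higher (12.3%) and 62 lower (6.62%) than in wild type, and the median log2 fold change over all tested arm TEs was 0.19. Over all 1540 TEs tested, 14.2% were higher and 5.58% lower, and the median was 0.21. The 115 that rose averaged a median of 1.77 CPM in gcn5 and 0.479 CPM in wild type, and 20 of them were at the floor in wild type. Of the 62 lower, 14 were at the floor in gcn5. Members at the floor could be called in that direction only. Scaling by library totals alone shifted all features by -0.10 on the log2 scale and gave 88 arm TEs higher and 73 lower.

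Several arm TEs were low in both genotypes without the gcn5 label and high in both with it. AT3TE30970 had 2.58 and 3.12 CPM in atxr5/6 gcn5, 0.326 and 0.457 in atxr5/6, 1.90 and 1.88 in gcn5, and 0.196 and 0.231 CPM in wild type. The gcn5 level exceeded that of wild type by 3.15 on the log2 scale (edgeR adjusted p = 4.19e-05, SE 0.32). AT4TE34430 was better counted, with 10.01 and 5.82 CPM in atxr5/6 gcn5, 2.61 and 2.91 in atxr5/6, 9.08 and 8.23 in gcn5, and 1.53 and 1.23 CPM in wild type. It rose by 2.62 in gcn5 on the log2 scale (edgeR adjusted p = 4.02e-05, SE 0.26), and the libraries with the label all lay above those without it. AT3TE94195, AT3TE32730 and AT3TE91870, all on chromosome 3, gave the same split, with increases in gcn5 of 2.40, 2.71 and 3.11 on the log2 scale. AT1TE93275, which was high in each mutant, rose by 4.74 on the log2 scale in gcn5 (edgeR adjusted p = 3.68e-06, SE 0.34).

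The arm TEs that fell in gcn5 included AT5TE31350, with 7.595 and 6.23 CPM in atxr5/6 gcn5, 14.0 and 13.3 in atxr5/6, 4.21 and 2.74 in gcn5, and 15.1 and 14.2 CPM in wild type. Its libraries with the gcn5 label were all below those without it, and gcn5 was the lowest genotype. It fell by 2.08 on the log2 scale in gcn5 (edgeR adjusted p = 2.99e-05, SE 0.20). AT1TE30235 had 0.228 and 0.2397 CPM in atxr5/6 gcn5, 2.17 and 2.61 in atxr5/6, 0.0810 and 0.150 in gcn5, and 1.09 and 1.43 CPM in wild type. It fell by 3.36 on the log2 scale in gcn5 and was higher in atxr5/6 than in wild type by 0.94 (edgeR adjusted p = 0.0117). AT5TE27865 and AT2TE46580 were also lower, with log2 fold changes of -1.36 and -2.65. AT1TE39775 was at the floor in gcn5, with 1.20 and 1.43 CPM in wild type, so it was at least 10.79-fold lower.

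Once the rDNA share was a covariate, edgeR called no arm TE in gcn5 against wild type, while 65 had an unadjusted p under 0.05, and DESeq2 without the covariate called 107. That covariate splits the libraries exactly as the gcn5 label does, so the fit cannot tell the label from the rDNA share. The count of 177 was 106 without gcn5 replicate 2 and 102 without wild-type replicate 1, of which 52 were higher and 50 lower.

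A block of arm TEs that were high with the gcn5 label lay at the tip of chromosome 2, around AT2TE00095. That element had 106 and 106 CPM in atxr5/6 gcn5, 10.1 and 22.1 in atxr5/6, 338 and 409 in gcn5, and 2.29 and 6.01 CPM in wild type. It alone held 9.54% and 10.9% of all TE counts in gcn5. Within 100 id numbers of it lie 12 members, 10 of them tested, and their summed level was 25.3 and 11.4 CPM in atxr5/6 gcn5, 1.30 and 2.68 in atxr5/6, 29.1 and 24.1 in gcn5, and 0.588 and 0.809 CPM in wild type. All 10 were called higher in gcn5 than in wild type, in atxr5/6 gcn5 than in wild type and in atxr5/6 gcn5 than in atxr5/6. In the last of these comparisons their log2 fold changes ranged from 2.43 to 4.08. AT2TE00085, the member with the smallest p in gcn5, had 3.26 and 2.50 CPM in atxr5/6 gcn5, 0.196 and 0.522 in atxr5/6, 7.78 and 11.2 in gcn5, and 0.0654 and 0.0385 CPM in wild type. It was at least 82.1-fold higher in gcn5 than in wild type (edgeR adjusted p = 2.36e-06). AT2TE00130 had 1.82 and 1.88 CPM in gcn5, 1 count in wild-type replicate 1 and none in replicate 2, and was at least 16.0-fold higher. The summed level of the 12 members and the rDNA share were both high in the 4 libraries with the gcn5 label. Within each genotype the library with the larger rDNA share also had the larger summed level. Between genotypes, gcn5 replicate 2 had a lower rDNA share than atxr5/6 gcn5 replicate 2 and a higher summed level. The part of the rDNA share in the level was not tested. Without these TEs 105 arm TEs were higher in gcn5 than in wild type and 108 in atxr5/6 gcn5 than in atxr5/6, so most calls in both comparisons lay elsewhere.

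The atxr5/6 gcn5 combination was set against wild type. It had 136 arm TEs higher (14.5%) and 103 lower (11.0%), and the median log2 fold change was 0.11. Over all 1540 TEs tested, 29.6% were higher and 9.35% lower, and the median was 0.39. In the central windows 319 of 603 (52.9%) were higher and 41 (6.80%) lower. On the arms, 30 of the 136 higher were at the floor in wild type and 11 of the 103 lower in atxr5/6 gcn5. Such members passed the filter through other libraries and could be called in that direction only. The smallest p belonged to AT1TE93275 (log2 fold change 4.91, SE 0.33, edgeR adjusted p = 6.48e-07). AT5TE29665 had its highest level in the combination, with 2.61 and 2.19 CPM in atxr5/6 gcn5, 0.196 and 0.163 in atxr5/6, 0.972 and 1.20 in gcn5, and 0.0654 and 0.0385 CPM in wild type. Its 4 genotypes did not overlap, and it was at least 20.8-fold higher in atxr5/6 gcn5 than in wild type. AT1TE36570 had the same order, with 3.65 and 4.04 CPM in atxr5/6 gcn5, 1.39 and 1.04 in atxr5/6, 2.47 and 1.88 in gcn5, and 0.479 and 0.385 CPM in wild type. Its log2 fold change was 3.11 (SE 0.27, edgeR adjusted p = 4.37e-06).

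Among the 103 lower members, AT2TE43295 fell by 2.44 on the log2 scale (SE 0.26, edgeR adjusted p = 2.17e-05). AT2TE41765 had no read in atxr5/6 gcn5, 0.826 and 0.555 in atxr5/6, 0.0405 and 0.0376 in gcn5, and 0.632 and 0.616 CPM in wild type, and was at least 6.08-fold lower in atxr5/6 gcn5 than in wild type. AT1TE62700 had 0.391 and 0.377 CPM in atxr5/6 gcn5, 2.35 and 1.99 in atxr5/6, 0.486 and 0.526 in gcn5, and 1.48 and 1.54 CPM in wild type. Both were low in the 2 genotypes with the gcn5 label and high in the others. The log2 fold change of AT1TE62700 was -1.96 (SE 0.29, edgeR adjusted p = 2.41e-04). The count of 239 calls was 126 with DESeq2, 150 with a mean of at least 20 counts and 1 with the rDNA covariate, which follows the gcn5 label. Without wild-type replicate 1 it was 139, of which 66 were higher and 73 lower, and without atxr5/6 gcn5 replicate 1 it was 185, of which 86 were higher and 99 lower.

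The comparison of atxr5/6 gcn5 with atxr5/6 asked what the gcn5 mutation adds to the double mutant. On the arms 118 TEs were higher (12.6%) and 120 lower (12.8%), and the median log2 fold change was 0.10. Over all 1540 TEs tested, 13.2% were higher and 26.6% lower, and the median was -0.07. In the central windows 84 of 603 (13.9%) were higher and 289 (47.9%) lower. On the arms, 15 of the 118 higher were at the floor in atxr5/6 and 13 of the 120 lower in atxr5/6 gcn5. These members, too, passed the filter through other libraries and could be called in that direction only. The lower members with the smallest p had their highest level in atxr5/6, though some were also counted in wild type. AT3TE67635 fell by 5.51 on the log2 scale (edgeR adjusted p = 7.26e-07, SE 0.33), and AT4TE03295 and AT1TE30235 had log2 fold changes of -4.73 (SE 0.34) and -3.33 (SE 0.33). AT2TE35840 and AT2TE03625 were at the floor in atxr5/6 gcn5 and at least 18.7-fold and 20.6-fold lower there than in atxr5/6. AT1TE62700, which was not called between atxr5/6 and wild type (edgeR adjusted p = 0.0974), had a log2 fold change of -2.49. Both comparisons use the same atxr5/6 libraries, so the opposite direction is not independent evidence.

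Several members that rose in atxr5/6 gcn5 relative to atxr5/6 were also high in gcn5. AT5TE29665 rose by 3.69 on the log2 scale (SE 0.33, edgeR adjusted p = 5.39e-06) and AT3TE30970 by 2.88 (SE 0.27, edgeR adjusted p = 8.31e-06). AT3TE91870 had 3.68 and 4.01 CPM in atxr5/6 gcn5, 0.761 and 0.490 in atxr5/6, 3.28 and 2.11 in gcn5, and 0.283 and 0.347 CPM in wild type. AT4TE48435 had 1.04 and 0.822 CPM in atxr5/6 gcn5, no read in atxr5/6, 0.972 and 1.62 CPM in gcn5, and a single read in wild type, and was at least 9.52-fold higher in atxr5/6 gcn5 than in atxr5/6. AT1TE78470 and AT2TE82905 were at least 12.8-fold and 20.3-fold higher. AT3TE76010, by contrast, was lowest in atxr5/6 and rose by 2.08 in atxr5/6 gcn5 (SE 0.26, edgeR adjusted p = 6.95e-05). The count of 238 calls was 109 with DESeq2 (45 higher and 64 lower), 141 with a mean of at least 20 counts and 2 with the rDNA covariate. It was 153 without atxr5/6 gcn5 replicate 1 (58 higher and 95 lower), 98 without atxr5/6 replicate 1 and 112 without atxr5/6 replicate 2.

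The gcn5 label was also compared with and without atxr5/6 through 2 comparisons that share no library, gcn5 against wild type and atxr5/6 gcn5 against atxr5/6. Of the 115 arm TEs higher in gcn5, 59 (51.3%) were also higher in atxr5/6 gcn5 than in atxr5/6, which is 50% of the 118 called there. Of the 62 lower in gcn5, 37 (59.7%) were also lower in atxr5/6 gcn5 than in atxr5/6, which is 30.8% of 120. Of all 936 tested arm TEs, 12.6% were higher and 12.8% lower in atxr5/6 gcn5 than in atxr5/6. The 59 include the 10 tested members at the tip of chromosome 2. Only AT1TE81330 and AT3TE27070 were called in opposite directions, higher in gcn5 and lower in atxr5/6 gcn5 than in atxr5/6. Both were named after their values were seen. Across the 864 tested members above the floor in every genotype, the log2 fold changes of both comparisons correlated with Pearson's r of 0.50 and Spearman's rho of 0.45, given as a description across TEs, which are not independent. Without the members at the tip of chromosome 2 these were 0.47 and 0.45. The rDNA share differs in both comparisons, and its part in the likeness was not tested.

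**Figure D4:**
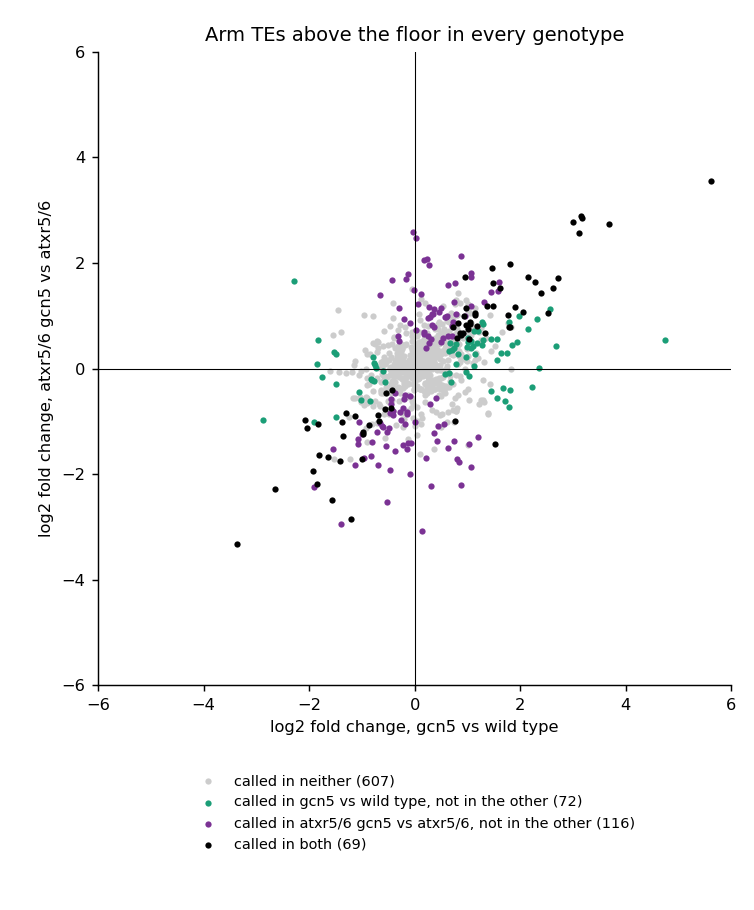
Each point is 1 of the 864 tested arm TEs above the floor in every genotype, with its log2 difference between gcn5 and wild type (x axis) and between atxr5/6 gcn5 and atxr5/6 (y axis), colored by the comparisons in which it was called. Points called in both comparisons lie along the diagonal apart from AT1TE81330 and AT3TE27070, and AT1TE93275 lies far to the right near 0 on the y axis.

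Between atxr5/6 gcn5 and gcn5, which differ in the atxr5/6 alleles, few arm TEs were called. There were 10 higher (1.07%) and 15 lower (1.603%), and 74 members had an unadjusted p under 0.05. The median log2 fold change was -0.05. Over all 1540 TEs tested, 11.3% were higher and 1.49% lower, and the median was 0.04. In the central windows 164 of 603 (27.2%) were higher and 7 (1.16%) lower. Of the 10 higher, 6 were at the floor in gcn5. AT3TE35825 had 1.21 and 0.856 CPM in atxr5/6 gcn5, 0.739 and 0.784 in atxr5/6, 0.122 and 0.0752 in gcn5, and 0.0436 and 0 CPM in wild type. It was high in both genotypes with atxr5/6 and at the floor in the others, and at least 8.48-fold higher in atxr5/6 gcn5 than in gcn5 (edgeR adjusted p = 0.00109). AT4TE05190 was at least 2.62-fold higher. AT5TE31350 rose by 1.00 on the log2 scale (SE 0.20, edgeR adjusted p = 0.00556), and AT5TE29665 rose by 1.14 (SE 0.27, edgeR adjusted p = 0.0168). AT4TE56270 was at least 3.16-fold higher.

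All 15 lower members were higher in gcn5 replicate 2 than in replicate 1, by a median of 0.68 on the log2(CPM + 0.1) scale, against 497 of 936 over all tested arm TEs. AT4TE88500 had 0.913 and 1.40 CPM in atxr5/6 gcn5, 2.91 and 3.10 in atxr5/6, 2.43 and 5.30 in gcn5, and 2.46 and 2.12 CPM in wild type. It fell by 1.75 on the log2 scale (SE 0.34, edgeR adjusted p = 0.00485), and the atxr5/6 gcn5 libraries were the lowest of the 8. AT3TE82950, AT3TE27185 and AT5TE30155 were lower too, with log2 fold changes of -2.02, -2.26 and -2.51. Without gcn5 replicate 2 these 4 were no longer called (adjusted p = 0.0567 to 0.114, edgeR), nor was AT5TE31350 (adjusted p = 0.0754). AT3TE27185 was also not called without atxr5/6 gcn5 replicate 1 (edgeR adjusted p = 0.0534). The count of 25 calls was 7 without gcn5 replicate 2, of which 2 were lower. It was 39 without gcn5 replicate 1, 15 without atxr5/6 replicate 1 and 13 without atxr5/6 replicate 2. The call of AT4TE56270 was lost with DESeq2, with no low-count filter and in 6 of the 8 fits that left out a library, and that of AT5TE29665 with DESeq2, without atxr5/6 gcn5 replicate 1 and without gcn5 replicate 1.

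The other pair of comparisons without a common library, atxr5/6 against wild type and atxr5/6 gcn5 against gcn5, had few calls in the second comparison. Of the 85 arm TEs higher in atxr5/6 than in wild type, 7 (8.24%) were also higher in atxr5/6 gcn5 than in gcn5. This is 70% of the 10 called there. Of all 936 tested arm TEs, 1.07% were higher in atxr5/6 gcn5 than in gcn5, and 9.08% in atxr5/6 than in wild type. Both shares of higher members thus lay above those of all tested arm TEs. These 7 were AT1TE36570, AT3TE35825, AT3TE67635, AT4TE05190, AT4TE07420, AT4TE56270 and AT5TE29995, of which the last was named after its values were seen. Another 4 of the 85 were lower in atxr5/6 gcn5 than in gcn5, namely AT1TE89775, AT2TE00085, AT2TE00130 and AT3TE27070. Of the 51 lower in atxr5/6, none was lower in atxr5/6 gcn5 than in gcn5 among the 15 called by edgeR. Across the same 864 members Pearson's r was -0.02 and Spearman's rho was 0.01. Members at the floor in any genotype are left out of these, so of the 7 shared TEs only AT1TE36570 entered. Of the 4 in opposite directions, AT1TE89775 and AT3TE27070 entered.

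The interaction asked whether the change that goes with the gcn5 label differs with the atxr5/6 label. It is the log2 difference between atxr5/6 gcn5 and atxr5/6 minus that between gcn5 and wild type. On the arms it was called for 7 TEs above 0 (0.748%) and 19 below 0 (2.03%), with a median of -0.11. Over all 1540 TEs tested, 0.519% were above 0 and 4.42% below, and the median was -0.29. AT1TE93275 gave the smallest p, with an interaction of -4.19 (SE 0.42, edgeR adjusted p = 2.97e-04). Its level was raised in gcn5 relative to wild type, but was 3.81 and 3.05 CPM in atxr5/6 gcn5 against 2.39 and 2.32 CPM in atxr5/6. AT3TE76010 had an interaction of 1.85 (SE 0.35, edgeR adjusted p = 0.0149). AT5TE58950 gave 1.91 (SE 0.45, edgeR adjusted p = 0.0368), with 26.6 and 14.1 CPM in atxr5/6 gcn5, 6.15 and 5.65 in atxr5/6, 20.9 and 19.96 in gcn5, and 14.6 and 30.2 CPM in wild type. Both of these were lowest in atxr5/6, and their other genotypes overlapped. AT4TE35205 was highest in atxr5/6, with 2.51 and 2.50 CPM in atxr5/6 gcn5, 4.91 and 5.71 in atxr5/6, 2.80 and 3.57 in gcn5, and 2.40 and 2.27 CPM in wild type, and its interaction was -1.52 (SE 0.27, edgeR adjusted p = 0.00972). The count of 26 was 1 without atxr5/6 replicate 2, 8 without atxr5/6 replicate 1, 7 without gcn5 replicate 2, 10 without wild-type replicate 1 (8 above 0 and 2 below) and 7 without wild-type replicate 2. It was 52 without gcn5 replicate 1, 46 without atxr5/6 gcn5 replicate 2, 46 with no low-count filter, 17 with DESeq2 and 2 with the rDNA covariate.

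Position along the arm was read from the distance, in id numbers, to the nearest edge of a central window. Of 91 tested members within 3000 id numbers of an edge, 16 (17.6%) were higher and 3 lower in atxr5/6 than in wild type, and of the 845 farther out 69 (8.17%) were higher and 48 lower. In atxr5/6 gcn5 against atxr5/6, 28 of the 91 (30.8%) were lower and 4 higher, while farther out 92 (10.9%) were lower and 114 higher. In gcn5 against wild type 5 of the 91 were higher and 9 lower, with 110 higher and 53 lower farther out. In atxr5/6 against wild type the share of higher members next to the central windows thus lay between that of the distal arms and the 54.1% of the central windows. No test of these shares was run. In the next bin beyond 3000 id numbers 25.2% of 131 members were higher in gcn5, and 19.0% of 121 without the members at the tip of chromosome 2. The count of arm TEs called in atxr5/6 against wild type was 125 when each window was widened by 2000 id numbers on either side. Among chromosomes, the share higher in atxr5/6 than in wild type ran from 6.58% on chromosome 5 to 10.9% on chromosome 2. In gcn5 against wild type 24 of 128 were higher on chromosome 2, among them the 10 members at its tip, and on the other chromosomes the share ran from 9.31% on chromosome 1 to 13.8% on chromosome 4.

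**Figure D5:**
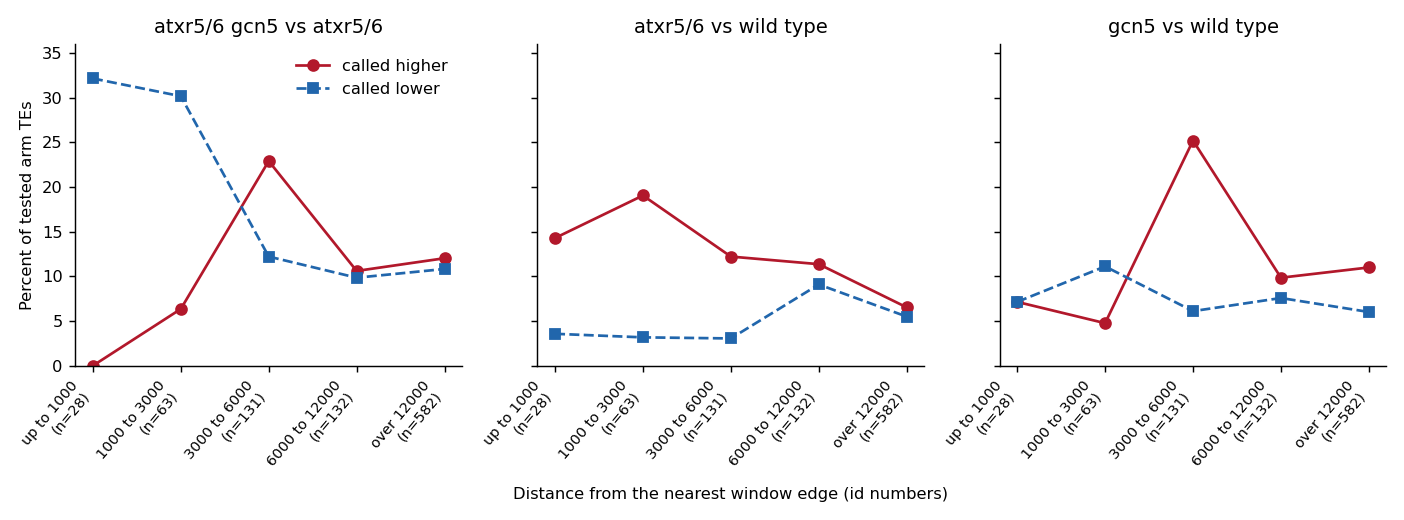
Percent of tested arm TEs called higher (circles, solid lines) and lower (squares, dashed lines) by distance in id numbers from the nearest central-window edge, in 3 comparisons, with the number tested under each bin. In atxr5/6 gcn5 against atxr5/6 the lower share is 32.1% and 30.2% in the bins nearest the windows and 9.85% to 12.2% beyond 3000, and in atxr5/6 against wild type the higher share falls to 6.53% in the farthest bin.

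Some called members were close neighbours. Of the 115 arm TEs higher in gcn5 than in wild type, 31 (26.96%) had another within 25 id numbers that was also higher. The same held for 6 of the 85 higher in atxr5/6 than in wild type (7.06%), while 2 of the 62 lower in gcn5 had a neighbour also lower (3.23%). Of all 936 tested members, 225 (24.0%) had another tested member within 25 id numbers, whether called or not. The 31 include the 10 tested members at the tip of chromosome 2. Neighbours can be pieces of 1 element or share a transcript, so they are not separate observations. On chromosome 3, AT3TE30960, AT3TE30965, AT3TE30970 and AT3TE30975 all rose in gcn5, with log2 fold changes of 1.28, 2.06, 3.15 and 3.00. On chromosome 4, AT4TE34650, AT4TE34655, AT4TE34680 and AT4TE34700 rose by 2.14, 1.14, 2.31 and 3.16, and AT4TE42870, AT4TE42880 and AT4TE42895 by 1.20, 2.52 and 1.02. These runs were named after their values were seen. AT4TE42880 had 7.63 and 4.38 CPM in atxr5/6 gcn5, 2.63 and 3.20 in atxr5/6, 5.96 and 11.5 in gcn5, and 1.504 and 1.54 CPM in wild type. A run on chromosome 1, AT1TE71760, AT1TE71770 and AT1TE71775, was lower in atxr5/6 than in wild type, with log2 fold changes of -0.55, -1.22 and -0.97. On chromosome 5, AT5TE18970, AT5TE18975 and AT5TE18980 were lower in atxr5/6 gcn5 than in atxr5/6, with log2 fold changes of -0.58, -0.76 and -1.13.

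No read was found in either wild-type library for 39 of the 1980 members, which allows up to 0.0654 CPM in replicate 1 and 0.116 CPM in replicate 2. Of these 39, 6 were above the floor in both atxr5/6 gcn5 libraries, 9 in both atxr5/6 libraries and 2 in both gcn5 libraries. AT4TE05190 and AT4TE07420 are among the 39. Members with no wild-type count reached 10 counts through mutant reads alone, so these numbers are not rates of activation.

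Genes involved in TE silencing were counted in the same libraries. A list of 22 genes covered DNA methyltransferases, histone H3 lysine 9 methyltransferases, the small RNA pathway and related factors, and 21 were tested (SUVH6 was not). The list also held the demethylases ROS1 (DML1), for DNA, and IBM1, for histone H3 lysine 9, which remove such methylation. In atxr5/6 against wild type 5 were higher, beside 5.51% of all genes called higher. These were MET1, the maintenance methyltransferase (log2 fold change 0.67), RDR2, which makes double-stranded RNA for small RNA production (0.80), DCL3, which cuts it (0.61), NRPD1, the largest subunit of RNA polymerase IV (0.44), and SUVH4, a lysine 9 methyltransferase also called KYP (0.52). In gcn5 against wild type 9 were higher, beside 17.9% of all genes called higher, and in atxr5/6 gcn5 against wild type 10 were higher, beside 18.5%. NRPE1, the largest subunit of RNA polymerase V, had 18.2 and 20.1 CPM in atxr5/6 gcn5, 8.70 and 11.5 in atxr5/6, 16.9 and 19.9 in gcn5, and 8.67 and 7.59 CPM in wild type. It rose by 1.17 on the log2 scale in gcn5 against wild type (SE 0.16, edgeR adjusted p = 0.00136) and was higher in both genotypes with the label. In atxr5/6 gcn5 against atxr5/6, 5 listed genes were higher and 1 lower, beside 17.9% and 18.3% of all genes. The 5 include the demethylase ROS1. The lower one was RDR2, with 4.47 and 4.76 CPM in atxr5/6 gcn5, 7.59 and 8.42 in atxr5/6, 4.38 and 3.61 in gcn5, and 4.66 and 4.47 CPM in wild type. RDR2 was thus highest in atxr5/6, and fell by 0.79 in atxr5/6 gcn5 (SE 0.13, edgeR adjusted p = 0.00326). Between atxr5/6 gcn5 and gcn5 the smallest adjusted p in the list was 0.856 for NRPD1, and in the interaction it was 0.111 for MET1 (edgeR), so no listed gene was called in either.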

How the data were processed

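The authors deposited raw read counts for genes and annotated TEs in 8 RNA-seq libraries. Values are whole, and totals differ between libraries, from which the unit was taken. Per the labels' protocols, libraries came from leaf RNA depleted of ribosomal RNA, with a stranded kit. The submitters' processing notes name STAR 2.7.2a, featureCounts 1.6.4 and DESeq2 1.26 and the builds TAIR10 and dm6 without their roles. The annotation, strand setting and handling of multimapping reads are not given in the sources used here. Groups came from the sample titles.

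Counts were tested in R 4.3.3 with edgeR 4.0.16 (glmQLFit and glmQLFTest), with all 8 libraries in 1 fit by genotype and 4 residual degrees of freedom. Library sizes were scaled by TMM on gene counts, and TE counts used the same effective sizes. filterByExpr at its defaults (minimum count 10) left 1540 TEs and 19591 genes, over which p-values were adjusted by Benjamini-Hochberg. Standard errors (SE) are the absolute log2 fold change over the square root of F. rDNA features are the 16 gene identifiers that RefSeq (TAIR10.1) places within the rDNA units at the top of chromosome 2 and in the middle of chromosome 3, whatever their annotated type; RefSeq listed 99.1% of gene identifiers. Sums and shares were compared by two-sided exact permutation over libraries. The procedure was tested on simulated data. Alternatives included other size factors, other low-count filters, DESeq2 1.42.0, a replicate block, the rDNA share as covariate and each library left out.

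Members and gene lists were chosen with earlier results of these data known. Among called arm TEs without overlap between groups, the text names up to 8 higher and 6 lower with the smallest p per comparison against wild type and against atxr5/6, 5 and 5 against gcn5, 6 and 6 called in the interaction, AT2TE00095, and the 5 highest in mean CPM. Runs of neighbours, the members at the tip of chromosome 2 and TEs called in opposite directions were named after their values were seen. Fold changes depend on the TMM scaling, since no external standard was counted.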

Additional observations from a re-analysis of the deposited data

Results flagged for a closer look

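For 26 arm TEs the effect of the gcn5 label differed with the atxr5/6 label, tested by the interaction term in edgeR, and the 12 that were named by the smallest p in each direction are given here. The values are the log2 difference between atxr5/6 gcn5 and atxr5/6 minus that between gcn5 and wild type. Above 0 were AT1TE17410 at 3.95, AT1TE10570 at 2.37, AT5TE58950 at 1.91, AT3TE76010 at 1.85, AT1TE71840 at 1.44 and AT5TE31350 at 1.10. All but AT5TE31350 had their lowest mean in atxr5/6. Below 0 were AT2TE00085 at -4.22, AT1TE93275 at -4.19, AT1TE89775 at -2.57, AT4TE88500 at -2.12, AT3TE27070 at -1.77 and AT4TE35205 at -1.52. AT2TE00085 was at the floor in wild type, so its value is not exact. Of the 12, AT1TE93275 alone was called in each of the 8 fits that left out a library.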

How the results depend on the processing

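Counts of called arm TEs are given in the order atxr5/6 against wild type, gcn5 against wild type, atxr5/6 gcn5 against wild type, atxr5/6 gcn5 against atxr5/6, atxr5/6 gcn5 against gcn5, and the interaction, where the starting counts were 136, 177, 239, 238, 25 and 26. DESeq2 gave 78, 107, 126, 109, 9 and 17. A mean of at least 20 counts gave 69, 126, 150, 141, 11 and 18, and the rDNA share as covariate gave 58, 0, 1, 2, 17 and 2. In comparisons across the gcn5 label that covariate follows the label, and such a fit cannot separate them. The rDNA share was also higher in both atxr5/6 libraries than in both wild-type libraries. Fitting the compared genotypes alone gave 205 for the first and 12 for the fifth, and no low-count filter gave 46 for the interaction. Leaving out 1 library in turn gave 80 to 173, 102 to 216, 139 to 256, 98 to 263, 7 to 39, and 1 to 52. The cause of these changes was not tested. With a replicate block the counts were 141, 177, 237, 234, 29 and 34. For pairs of genotypes, the differences between replicates correlated between -0.19 and 0.19 over genes, which gave no sign that the numbers pair libraries.

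The difference in arm share with the atxr5/6 label was -10.97 percentage points with AT2TE00095 counted in. It was -11.9 without the 5 most counted TEs (exact permutation p = 0.0286 for both, not adjusted), and -10.5 to -4.81 with a library left out. With the gcn5 label it was 1.99 and 3.93 under the same choices, turning its sign, and -7.64 to -1.10 with a library left out. The atxr5/6 difference in arm counts per 1000000 gene counts turned to -75.2 with AT2TE00095, -30.5 without organelle and rDNA genes and -59.1 on effective library size, and ran from -64.7 to 125 with a library left out. The gcn5 difference turned to 106, 599.9 (exact permutation p = 0.0286, not adjusted) and 3.50 under these 3 choices, and ran from -208 to -18.1. Of 78 calls of named TEs, none turned its sign, and 50 were lost with the rDNA covariate, which follows the gcn5 label. Low counts limit the rest: 1044 members could not be tested.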
